A study of Homo sapiens with 18 samples.

Results

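NCAM1, NCAM2, CADM1, CADM2, CADM3 and CADM4 encode cell adhesion molecules of the immunoglobulin superfamily. They were 6 of the 20329 genes counted in an RNA sequencing study of HAP1 cells, 2 of the NCAM family and 4 of the CADM family. The members were chosen by gene family around NCAM2 and CADM1, which had been selected on their measured expression in the ΔWAPL clones 3.3 and 1.14 against their controls. Every comparison of NCAM2 and CADM1 that uses ΔWAPL or control samples, and the level of NCAM2 relative to NCAM1, is therefore given as a description without a test.

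HAP1 is a near-haploid human cell line derived from a chronic myeloid leukaemia line, and the parental cells carry a mutant p53. Polyadenylated RNA was sequenced in 18 samples, 3 in each of 6 groups. The groups were wild-type control A, ΔWAPL clone 3.3, ΔSCC4, ΔWAPL/ΔSCC4, wild-type control B and ΔWAPL clone 1.14. CRISPR was used to disrupt WAPL with a cassette for resistance to blasticidin and SCC4 with a cassette for resistance to puromycin, and SCC4 was also disrupted in ΔWAPL 3.3 cells to give ΔWAPL/ΔSCC4. ΔWAPL was given as 2 clones. ΔSCC4 and ΔWAPL/ΔSCC4 each came under 1 name, so the effects of these genotypes and of the cells isolated for them cannot be told apart. WAPL releases the ring-shaped cohesin complex from DNA. SCC4, encoded by MAU2, is a subunit of the complex that loads cohesin. Clone 3.3, ΔSCC4 and ΔWAPL/ΔSCC4 were compared with control A, and clone 1.14 with control B. Nothing in the labels says whether the 3 samples of a group were separate cultures, so p-values measure only the spread between these samples.

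NCAM and CADM proteins stand in the plasma membrane with immunoglobulin-like domains outside the cell, and bind like molecules or family members on neighbouring cells. NCAM1 is the classic neural cell adhesion molecule, which can carry long chains of polysialic acid that weaken adhesion, and NCAM2 is its paralog in neurons of the olfactory system and elsewhere in the brain. CADM proteins, also called SynCAMs or nectin-like molecules, join axons to glia and the sides of synapses to each other. CADM1 also holds epithelial cells together and is known as a tumour suppressor. Cohesin holds distant stretches of a chromosome together in loops, and the study asked how release and loading of cohesin shape these loops.

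NCAM2 (ENSG00000154654) occupies 544924 bases of the plus strand of chromosome 21, starting at base 22370727 and ending at base 22915650 of GRCh37. CADM1 (ENSG00000182985) spans 335738 bases of the minus strand of chromosome 11, from 115039938 to 115375675. NCAM1 (ENSG00000149294) is on the same chromosome on the plus strand, from 112831997 to 113149158. CADM2 (ENSG00000175161) is the longest member with 1115440 bases on chromosome 3, from 85008140 to 86123579. CADM3 (ENSG00000162706) on chromosome 1, from 159141399 to 159173103, and CADM4 (ENSG00000105767) on chromosome 19, from 44126520 to 44144002, are the short members with 31705 and 17483 bases.

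The start of NCAM2 is shown because this gene had the largest fold change of the members above control in both ΔWAPL clones. The 250 bases before its annotated start, chr21:22370477-22370726 on the plus strand of GRCh37, held 40 CpG dinucleotides, which are in capitals below, and 76.8% G or C. This was more CpGs than in 97.8% of 35116 RefSeq promoters cut to the same 250 bases, whose median was 11. The second sequence, chr21:22372444-22372743 on the plus strand, is the stretch of 300 bases between the outer ends of the primers from which the study read chromosome contacts of NCAM2, with the places of both primers in capitals.
NCAM2 start: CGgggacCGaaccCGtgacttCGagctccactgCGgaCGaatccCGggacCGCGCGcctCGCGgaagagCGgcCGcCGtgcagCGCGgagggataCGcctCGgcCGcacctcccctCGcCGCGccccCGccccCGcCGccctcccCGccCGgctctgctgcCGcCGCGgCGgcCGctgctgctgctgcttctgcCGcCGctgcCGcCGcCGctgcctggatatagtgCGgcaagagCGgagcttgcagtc
NCAM2 viewpoint: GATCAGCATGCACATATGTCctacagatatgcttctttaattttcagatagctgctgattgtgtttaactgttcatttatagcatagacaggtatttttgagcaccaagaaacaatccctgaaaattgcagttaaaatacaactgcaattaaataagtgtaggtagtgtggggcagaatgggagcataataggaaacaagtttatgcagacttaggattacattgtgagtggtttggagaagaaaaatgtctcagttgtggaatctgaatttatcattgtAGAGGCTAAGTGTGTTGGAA
The viewpoint begins 1717 bases past the gene start, inside intron 1, which follows an exon ending at base 22370936 and is 281961 bases long. Both were searched on either strand for a short form of the motif bound by CTCF, the letters CC, any 3 bases, AG, any 2 bases and GGC, and neither held it. Of all promoter windows of 250 bases, 8.90% held this pattern, as did 10.58% of windows of 300 bases, and its absence says only that these letters are not in these windows. The paper describes its contact profile at NCAM2 as that of a CTCF site in the locus, and it placed CTCF sites from ChIP-seq peaks and a full motif. The short pattern searched here does not bear on that. The contact data themselves were not analysed here. For comparison, the 250 bases before CADM4 (chr19:44144003-44144252, minus strand) held 30 CpGs, more than 87.6% of promoters, and those before CADM3 held 16, more than 59.0%. Of the 6 members, 3 had an entry among the RefSeq promoters, CADM3, CADM4 and NCAM2, and the NCAM2 entry started 148753 bases past the start used here and held 14 CpGs, more than 55.2% of promoters.

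The total number of reads on genes ranged from 10007646 to 20711127 per sample. The targeted genes followed the labels. MAU2 had 0.98, 0.51 and 0.62 CPM (counts relative to library size, scaled by TMM factors over all samples) in ΔSCC4 and 0.91, 1.04 and 0.85 in ΔWAPL/ΔSCC4, against 52.05 to 72.73 in the other 12 samples. WAPL had 37.98 to 50.17 CPM in the 9 samples of ΔWAPL and ΔWAPL/ΔSCC4 cells and 67.99 to 131.08 in the 9 samples with intact WAPL. Of 6 blood markers, SPI1, MPO and HBG1 had no read in any group and all 6 summed to at most 0.25 CPM in any sample. Of 9 neuronal markers, ELAVL4 had no read in any group, and the 9 summed to 48.64 to 51.72 CPM in control A, 34.55 to 40.53 in clone 3.3, 40.07 to 40.71 in ΔSCC4, 44.88 to 47.15 in ΔWAPL/ΔSCC4, 38.26 to 43.27 in control B and 28.05 to 31.48 in clone 1.14. The 6 fibroblast markers, with LUM at no read in any group, summed to 22.92 to 27.52 CPM in control A, 54.31 to 61.96 in clone 3.3, 37.83 to 53.0 in ΔSCC4, 41.22 to 44.71 in ΔWAPL/ΔSCC4, 41.06 to 45.63 in control B and 68.54 to 78.13 in clone 1.14. Each group without WAPL, SCC4 or both was thus below its controls in the neuronal sum and above them in the fibroblast sum, in every sample. The markers within a list did not move together. Only 3 of the 9 neuronal and 2 of the 6 fibroblast markers had enough reads for the fits below. In every ΔWAPL/ΔSCC4 sample the neuronal marker INA was higher and SYT1 lower than in control A. In every ΔSCC4 sample the fibroblast marker PDGFRA was higher and COL1A1 lower than in control A. The part of these marker differences in the results below was not tested. In RNA of whole cultures, fewer cells of a type and less RNA per cell cannot be told apart.

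NCAM2 was almost silent in cells with WAPL and was expressed in both ΔWAPL clones. Control A had 0.39, 0.80 and 0.60 CPM, from 6, 13 and 10 reads, and control B 0.75, 0.67 and 0.39 CPM, from 11, 10 and 7 reads. ΔWAPL 3.3 had 17.14, 14.78 and 12.09 CPM, and ΔWAPL 1.14 had 22.26, 22.79 and 22.20. Every ΔWAPL sample lay above every control, and every sample of clone 1.14 above every sample of clone 3.3. The mean was 24.6-fold that of control A in clone 3.3, a log2 fold change of 4.58 (SE 0.25), and 37-fold that of control B in clone 1.14, a log2 fold change of 5.22 (SE 0.15).

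In cells that lacked SCC4, NCAM2 stayed at the low level. ΔWAPL/ΔSCC4 had 0.57, 0.31 and 0.40 CPM, from 10, 5 and 7 reads, and ΔSCC4 had 0.20, 0.10 and 0.07 CPM, from 3, 1 and 1 reads. The order of the means was thus clone 1.14, clone 3.3, control B, control A, ΔWAPL/ΔSCC4 and ΔSCC4. Both controls and ΔWAPL/ΔSCC4 overlapped in that order, and ΔSCC4 lay below all of them. Against clone 3.3, from which they were made, ΔWAPL/ΔSCC4 cells had a mean 34.6-fold lower, a log2 fold change of -5.08 (SE 0.24).

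NCAM1, the paralog of NCAM2, showed a different pattern and was low throughout, with 4 to 21 reads in any sample. It had 0.78, 0.49 and 0.42 CPM in control A, 0.45, 0.35 and 0.27 in ΔWAPL 3.3, 0.82, 0.47 and 0.51 in control B and 0.32, 0.59 and 0.30 in ΔWAPL 1.14. ΔWAPL/ΔSCC4 had 0.40, 0.49 and 0.23. In the order control B, control A, clone 1.14, ΔWAPL/ΔSCC4 and clone 3.3 neighbouring groups overlapped, and ΔSCC4 stood above them all with 1.24, 1.53 and 1.45 CPM.

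Divided by total exon length, NCAM2 made up 98.32% to 98.59% of the summed NCAM level in clone 3.3 and 98.33% to 99.12% in clone 1.14. It made up 43.37% to 71.34% in control A and 48.91% to 72.83% in ΔWAPL/ΔSCC4, where neither paralog led in every sample, and 54.37% to 68.64% in control B, where NCAM2 was the larger part in each sample. In ΔSCC4 the share was 6.8% to 19.48%, and NCAM1 was the larger part in each of the 3 samples. These shares depend on the length assigned to a gene. In control A the mean levels of NCAM1 and NCAM2 were 0.0444 and 0.0719 RPKM (CPM per kilobase) over total exon length, but 0.0969 and 0.0741 over the longest transcript, which puts NCAM1 first.

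**Figure D1:**
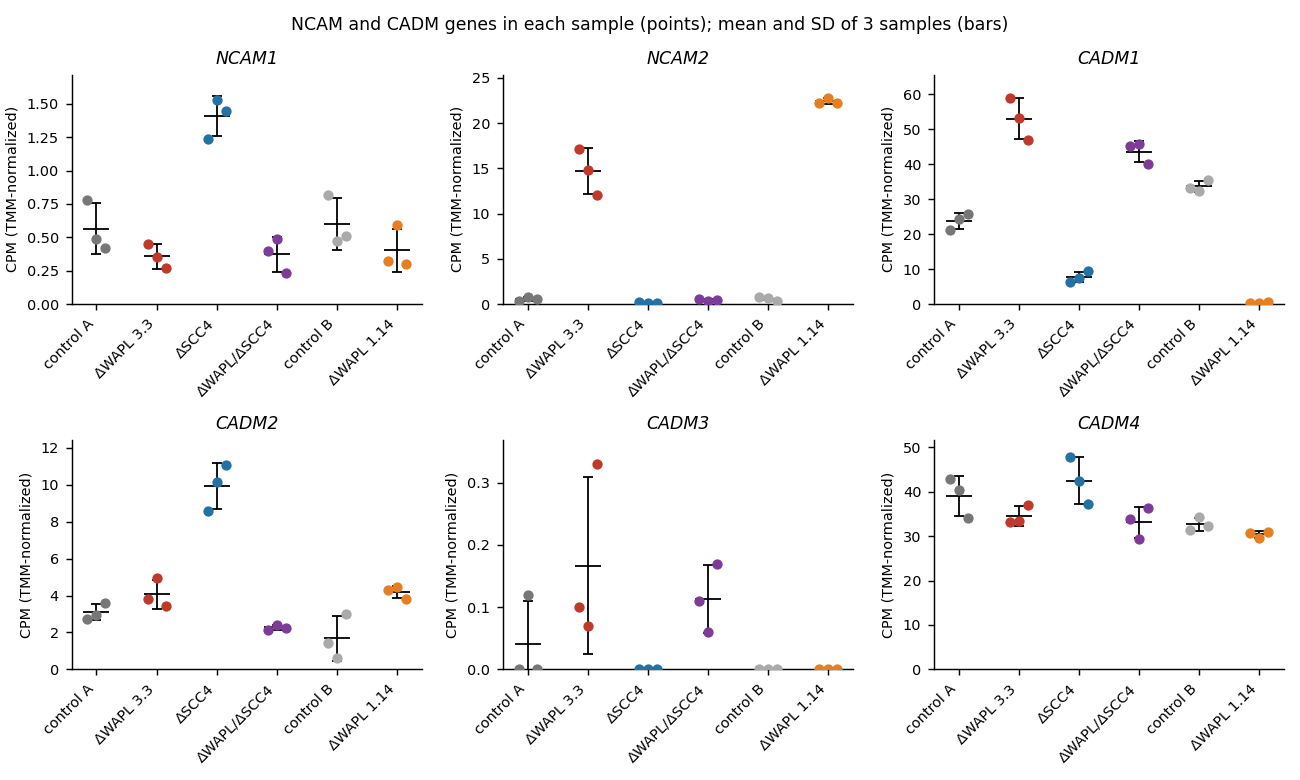
CPM of each of the 6 genes (vertical axes, each with its own scale from 0) in the 3 samples of each group (points), with mean and SD (bars). NCAM2 sits between 12.09 and 22.79 in the ΔWAPL clones and at most 0.80 elsewhere, CADM1 is at most 0.54 in ΔWAPL 1.14, and NCAM1 and CADM2 are highest in ΔSCC4.

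CADM1 was higher than control in clone 3.3 and almost silent in clone 1.14. Control A had 21.29, 24.23 and 25.62 CPM and ΔWAPL 3.3 had 58.94, 53.11 and 47.04, a log2 fold change of 1.14 (SE 0.15). Control B had 33.15, 32.33 and 35.44 CPM and ΔWAPL 1.14 had 0.32, 0.42 and 0.54, from 6, 7 and 9 reads. The mean in clone 1.14 was 79.1-fold lower, a log2 fold change of -6.30 (SE 0.14). No sample of a clone overlapped its controls.

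The 6 groups did not overlap in CADM1 in any pair. In order of the means they were clone 3.3, ΔWAPL/ΔSCC4 with 45.11, 45.65 and 40.09 CPM, control B, control A, ΔSCC4 with 6.44, 7.33 and 9.47 CPM, and clone 1.14. The controls themselves differed, since the lowest sample of control B was above the highest of control A, with means of 33.6 and 23.7 CPM. The differences of clone 3.3 and of clone 1.14 from their controls were both larger.

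CADM2, which is found mostly at axons and synapses, was at 2.73, 2.96 and 3.57 CPM in control A and 3.79, 4.95 and 3.45 in clone 3.3, which overlapped, with a log2 fold change of 0.37 (SE 0.21). Control B was uneven with 1.44, 0.60 and 2.98 CPM, and clone 1.14 had 4.29, 4.45 and 3.80, above all of them. The log2 fold change of 1.26 (SE 0.39) became 2.02 without control B replicate 3 and 0.88 without control B replicate 2. The highest level was in ΔSCC4 with 8.58, 10.18 and 11.06 CPM, and ΔWAPL/ΔSCC4 was low and even with 2.16, 2.40 and 2.26. The order of the means was ΔSCC4, clone 1.14, clone 3.3, control A, ΔWAPL/ΔSCC4 and control B. ΔSCC4 stood apart, both clones overlapped, clone 3.3 overlapped control A, and control B overlapped both control A and ΔWAPL/ΔSCC4.

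CADM4, the member of the family in Schwann cells that binds axonal CADM proteins, was the most even, with 29.37 to 47.84 CPM in all 18 samples. Group means ranged from 42.49 ± 5.34 CPM (SD, n = 3) in ΔSCC4 to 30.4 ± 0.74 (SD, n = 3) in clone 1.14, and neighbouring groups in the order ΔSCC4, control A, clone 3.3, ΔWAPL/ΔSCC4 and control B overlapped. The samples of clone 1.14, with 30.69, 29.55 and 30.95 CPM, lay below those of control B, with 31.37, 34.28 and 32.35, a log2 fold change of -0.11 (SE 0.07). In clone 3.3 it was -0.20 (SE 0.15).

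CADM3 had 0 to 5 reads per sample. ΔWAPL 3.3 had 2, 1 and 5 reads, ΔWAPL/ΔSCC4 had 2, 1 and 3, and control A had 0, 2 and 0. There was no read in the 9 samples of ΔSCC4, control B and clone 1.14, where a count of 0 allows up to 3 reads, or 0.159 to 0.3053 CPM depending on the sample. Every ΔWAPL/ΔSCC4 sample was above every ΔSCC4 sample, but on 2, 1 and 3 reads against 0, which is within that limit. With so few reads, no difference in CADM3 is read from these counts.

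Per length, CADM4 was the main CADM transcript in every sample, with 71.83% to 96.96% of the summed level per kilobase of exon. The part of CADM1 was 9.16% to 13.1% in control A, 16.19% to 18.08% in control B, 20.27% to 26.2% in clone 3.3 and 18.28% to 23.87% in ΔWAPL/ΔSCC4. It was 2.59% to 4.68% in ΔSCC4, and in each of the 3 samples there CADM2, with 3.8% to 6.01% over the group, exceeded it. In clone 1.14 CADM1 made up 0.21% to 0.35%, below CADM2 with 2.69% to 3.28%. In RPKM, CADM4 was at 17.32 ± 1.98 and CADM1 at 2.16 ± 0.20 in control A (SD, n = 3).

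**Figure D2:**
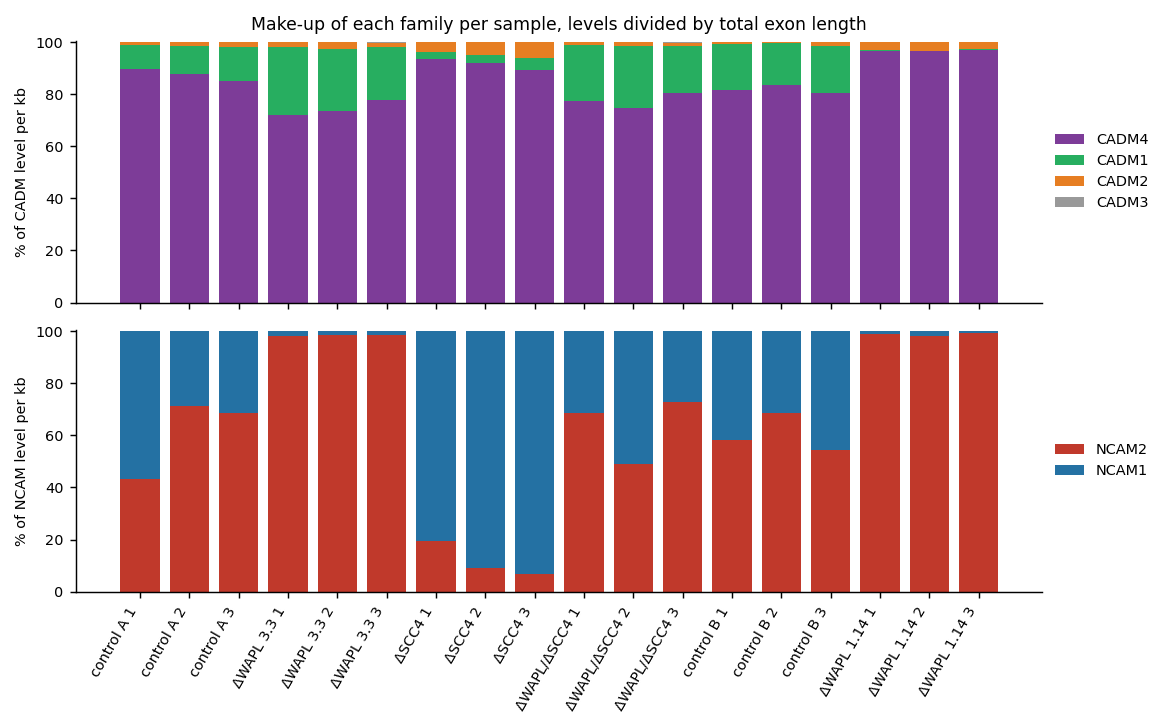
Percent of the summed level per kilobase of exon taken by each CADM gene (top) and each NCAM gene (bottom) in the 18 samples (bars, each adding to 100%). CADM4 takes at least 71.83% in every sample, and NCAM2 takes over 98% only in the 6 samples of the ΔWAPL clones.

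In the contrasts by which NCAM2 and CADM1 were selected, 2 members lay above control A in every clone 3.3 sample, NCAM2 and CADM1, and no member lay below in every sample. Over all genes tested 11.4% lay above and 11.9% below without overlap, and nothing is read from the members' count. In clone 1.14, NCAM2 and CADM2 lay above every control B sample, and CADM1 and CADM4 below, where 19.7% and 22.8% of all genes did. In ΔWAPL/ΔSCC4 against clone 3.3 no member lay above and NCAM2, CADM1 and CADM2 lay below every sample, where 13.2% and 14.6% of all genes did. The log2 fold changes in this last comparison were -0.28 (SE 0.13) for CADM1, -0.83 (SE 0.19) for CADM2 and -0.06 (SE 0.13) for CADM4. None of these comparisons was tested, because the samples of ΔWAPL entered the choice of NCAM2 and CADM1.

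Loss of SCC4 alone was tested against control A with the quasi-likelihood test of edgeR, adjusted over all genes by Benjamini-Hochberg at a threshold of 0.05. The samples of control A had entered the choice of NCAM2 and CADM1, so that only CADM2 and CADM4 are given with a p. CADM2 rose, with a mean 3.22-fold higher and a log2 fold change of 1.67 (SE 0.19, edgeR adjusted p = 0.000229), and was above control A in 3 of 3 samples. The call held when any single sample was left out, with adjusted p from 4.99e-05 to 0.00348. CADM4 differed by 0.11 on the log2 scale (SE 0.15, edgeR adjusted p = 0.724).

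The other members are described without a test. The mean of CADM1 was 3.06-fold lower in ΔSCC4, with a log2 fold change of -1.62 (SE 0.18), and its 3 samples lay below those of control A. The mean of NCAM1 was 2.49-fold higher, on 55 reads summed over ΔSCC4 against 27 over control A. NCAM1 had enough reads for the fit only through ΔSCC4, where it is high, which leaves a test of it void. NCAM2, with 5 reads over ΔSCC4 against 29 over control A, and CADM3 had too few reads for the fit.

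Of all 12503 genes tested in this comparison 9.49% passed the threshold, 5.45% higher and 4.03% lower. Deviations of same-numbered ΔSCC4 and control A samples correlated by 0.675, 0.115 and 0.615, which does not settle whether the numbers mark pairs. With the replicate number as a block, 46% of all genes passed, 5754 against 1186. The adjusted p of CADM2 was then 3.51e-06 and that of CADM4 0.209.

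Loss of both WAPL and SCC4 was tested against the same controls. CADM2 had a log2 fold change of -0.45 (SE 0.18, edgeR adjusted p = 0.216) although its 3 samples lay below those of control A, and CADM4 had -0.24 (SE 0.14, edgeR adjusted p = 0.435). Neither passed with edgeR or DESeq2, where 7.95% of all 12594 genes did with edgeR, 4.65% higher and 3.3% lower. Without a test, as control A entered its selection, CADM1 was 1.84-fold higher in ΔWAPL/ΔSCC4, with a log2 fold change of 0.88 (SE 0.12), and above control A in 3 of 3 samples. NCAM1, NCAM2 and CADM3 had too few reads for the fit, and the samples of NCAM1 and NCAM2 overlapped those of control A.

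Loss of WAPL in cells without SCC4 was tested by setting ΔWAPL/ΔSCC4 against ΔSCC4. The contrasts on which NCAM2 and CADM1 had been selected hold no sample of this comparison, although earlier results of these data were known. However, ΔWAPL/ΔSCC4 was made from clone 3.3, whose values entered that selection, so the test of CADM1 is not independent of the choice. It compares 2 lines, and loss of WAPL cannot be told apart from traits of clone 3.3. CADM1 was 5.63-fold higher, with a log2 fold change of 2.49 (SE 0.16, edgeR adjusted p = 5.75e-09). CADM2 was 4.37-fold lower, with a log2 fold change of -2.12 (SE 0.18, edgeR adjusted p = 1.4e-07). Both calls held when any single sample was left out. NCAM1 was again in the fit only through ΔSCC4 and is described without a test, with 19 reads summed over ΔWAPL/ΔSCC4 against 55 over ΔSCC4 and a mean 3.78-fold lower.

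In the same comparison CADM4 had a log2 fold change of -0.36 (SE 0.14, edgeR adjusted p = 0.069), and passed in a fit over all 18 samples (adjusted p = 0.0224). NCAM2, with 22 against 5 reads, had a log2 fold change of 1.70 (edgeR adjusted p = 0.0634) without the filter on low counts. With DESeq2 its adjusted p was 0.207. The fit over all 18 samples holds the samples on which NCAM2 was selected, so that no p of NCAM2 is given from it. Of CADM1, CADM2 and CADM4, 1 passed higher and 1 lower, where 27.3% of all 12604 genes passed, 13.7% higher and 13.6% lower. The levels of NCAM2 in ΔWAPL/ΔSCC4, 0.42 ± 0.13 CPM (SD, n = 3), remained far under the 14.67 ± 2.53 of clone 3.3 (SD, n = 3).

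Side by side, CADM1 was higher without WAPL by 1.14 on the log2 scale in cells with SCC4 (clone 3.3, not tested) and by 2.49 in cells without SCC4. For CADM2 the values were 0.37 and -2.12. In clone 1.14 against control B the values, also not tested, were -6.30 for CADM1 and 1.26 for CADM2. The difference between each pair of values was not tested.

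**Figure D3:**
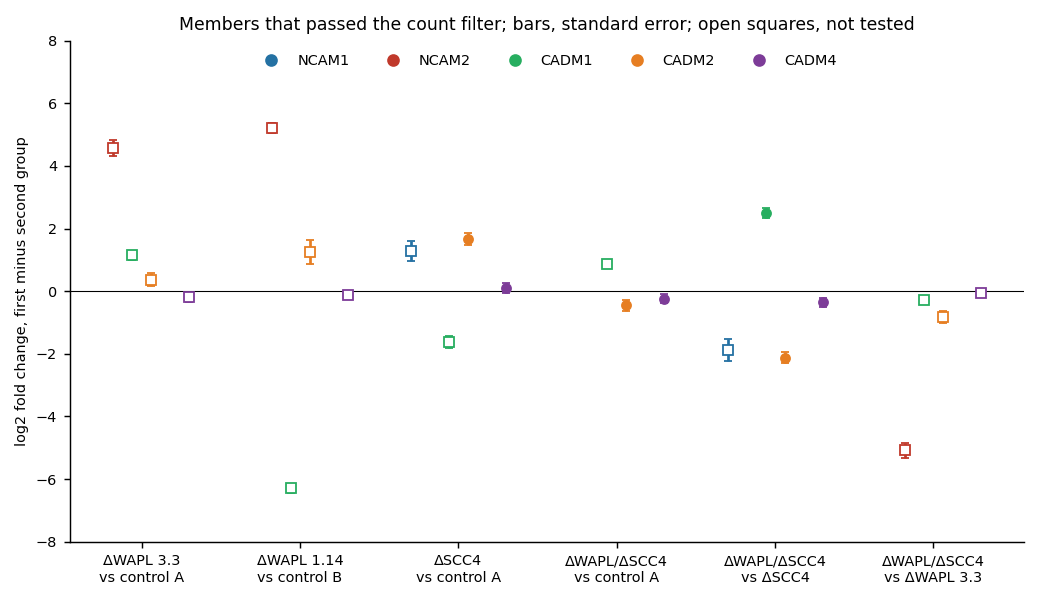
Log2 fold changes (vertical axis, first minus second group) of the members that passed the count filter in 6 comparisons, with standard errors (bars). Filled circles were tested and open squares are described without a test. CADM1 is at 1.14 and -6.30 in the ΔWAPL clones, and CADM1 and CADM2 stand on opposite sides of 0 in ΔSCC4 against control A and in ΔWAPL/ΔSCC4 against ΔSCC4.

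Partners of NCAM were read from a list of 13 genes for signalling, polysialylation and the membrane skeleton. In ΔSCC4 against control A, 1 of the 11 tested rose and 3 fell, where 5.45% of all genes rose and 4.03% fell, and with the replicate block, where 46% of all genes passed, 2 rose and 4 fell. In ΔWAPL/ΔSCC4 against control A again 1 of 11 rose and 3 fell, where 4.65% and 3.3% of all genes did. The falls in both comparisons include GAP43, which was in these fits only through control A, where it is high. Nothing is therefore read from these counts. In ΔWAPL/ΔSCC4 against ΔSCC4, 2 of 10 rose and 0 fell with edgeR or DESeq2, where 13.7% of all genes rose and 13.6% fell with edgeR. At an unadjusted p under 0.05, 3 were higher and 1 lower. The share of all genes at that level is not given, and nothing is read from it. The median log2 fold change of the list was -0.16, -0.02 and 0.07 in these comparisons, against medians within 0.005 of 0 over all genes tested.

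ST8SIA2, an enzyme that adds polysialic acid to NCAM1, fell in ΔSCC4 and rose in ΔWAPL/ΔSCC4. It was at 10.29, 8.63 and 8.34 CPM in control A, 1.95, 2.85 and 2.42 in ΔSCC4 and 14.56, 11.55 and 14.93 in ΔWAPL/ΔSCC4. ΔSCC4 lay below and ΔWAPL/ΔSCC4 above all controls, with log2 fold changes of -1.95 (SE 0.20, edgeR adjusted p = 0.00013) and 0.59 (SE 0.15, edgeR adjusted p = 0.0435). The other polysialyltransferase, ST8SIA4, rose in ΔSCC4 by 1.24 on the log2 scale (SE 0.23, edgeR adjusted p = 0.0063).

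GAP43, a growth cone protein downstream of NCAM, was at 1.37, 1.17 and 0.71 CPM in control A, 0.13, 0.0 and 0.14 in ΔSCC4 and 0.23, 0.18 and 0.4 in ΔWAPL/ΔSCC4. It is among the genes counted as falling in both comparisons with control A, but was in these fits only through control A, where it is high, so that no size or p is given. FGFR2, a growth factor receptor that NCAM can engage, fell by 0.73 on the log2 scale in ΔSCC4 (edgeR adjusted p = 0.0035) and by 0.53 in ΔWAPL/ΔSCC4 (edgeR adjusted p = 0.0168). FGFR1 fell by 0.51 in ΔWAPL/ΔSCC4 (edgeR adjusted p = 0.0212). RET, the receptor of the GDNF family of growth factors, rose by 0.57 in ΔWAPL/ΔSCC4 against ΔSCC4 (edgeR adjusted p = 0.00678).

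CADM partners, 10 genes for the protein 4.1 and MAGUK adaptors that bind the short cytoplasmic tail and for the CADM1 ligand CRTAM, were read in the same way. In ΔSCC4, 0 of the 9 tested passed with edgeR, where 9.49% of all genes did. DESeq2 called 1 lower, where it called 1244 genes in all. The replicate block gave 1 higher and 3 lower, where 46% of all genes passed. At an unadjusted p under 0.05, 0 were higher and 1 lower, with the share of all genes not given. Nothing is read from these counts. In ΔWAPL/ΔSCC4 against control A only EPB41L3, the protein 4.1 family member DAL-1, rose, by 0.43 (SE 0.11, edgeR adjusted p = 0.0436), a call lost with the replicate block. This was 1 of 9 tested, where 4.65% of all genes rose. Against ΔSCC4, 3 of 9 rose, EPB41 by 0.60, MPP3 by 0.57 and EPB41L2 by 0.51 (edgeR adjusted p = 0.00891, 0.0102 and 0.0195), where 13.7% of all genes did. CRTAM had no read in any group.

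Among 38 other adhesion genes of the immunoglobulin superfamily, 24 had enough reads in each tested comparison. In ΔSCC4, 6 rose and 2 fell, where 9.49% of all genes passed, and with the replicate block 9 rose and 9 fell, where 46% did. In ΔWAPL/ΔSCC4, 4 rose and 6 fell against control A, where 7.95% of all genes passed, and 4 rose and 11 fell against ΔSCC4, where 27.3% did. The rises against control A include SDK2, which was in these fits only through the knockout samples, where it is high. Nothing is therefore read from the counts against control A. The medians were -0.07, -0.07 and -0.09 on the log2 scale.

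SDK1, a synaptic adhesion molecule of the sidekick family, had the largest change of the list in ΔSCC4, from 1.5, 1.97 and 2.5 CPM in control A to 28.67, 25.55 and 25.08, a log2 fold change of 3.71 (SE 0.20, edgeR adjusted p = 2.15e-06). It was also higher in ΔWAPL/ΔSCC4, with 13.03, 11.37 and 14.93 CPM. Its paralog SDK2, counted as rising in both comparisons with control A but in these fits only through the knockout samples, was at 0.2, 0.49 and 0.54 CPM in control A, 1.04, 1.63 and 0.97 in ΔSCC4 and 1.54, 1.78 and 1.7 in ΔWAPL/ΔSCC4. ALCAM, another homophilic adhesion molecule, rose by 1.42 in ΔSCC4 (edgeR adjusted p = 0.000409).

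CNTN1, a contactin anchored by a lipid on axons, was at 15.30, 16.15 and 20.97 CPM in control A and 2.80, 2.44 and 3.45 in ΔSCC4, a log2 fold change of -2.59 (SE 0.20, edgeR adjusted p = 2.48e-05), and rose by 1.47 in ΔWAPL/ΔSCC4 against ΔSCC4 (edgeR adjusted p = 1.06e-05). CHL1 and NRCAM, relatives of L1CAM, moved apart in that last comparison, by -2.19 (edgeR adjusted p = 1.15e-08) and 1.83 (edgeR adjusted p = 1.09e-05). The axon guidance receptors ROBO1, with -1.33 there (edgeR adjusted p = 1.17e-05), and ROBO2, with -1.37 in ΔWAPL/ΔSCC4 against control A (edgeR adjusted p = 0.000379), fell.

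Markers of other cell types moved beside these genes. SYT1, a synaptic vesicle protein, fell in ΔSCC4 and in ΔWAPL/ΔSCC4 against control A, with log2 fold changes of -1.77 and -4.31 (edgeR adjusted p = 0.000169 and 1.31e-06). INA, a neuronal intermediate filament, rose by 0.68 in ΔWAPL/ΔSCC4 (edgeR adjusted p = 0.00365), and SYP, another vesicle protein, fell by 1.18 against ΔSCC4 (edgeR adjusted p = 1.27e-05). The fibroblast marker PDGFRA rose by 1.42 in ΔSCC4 (edgeR adjusted p = 0.00204), and COL1A1 by 1.15 in ΔWAPL/ΔSCC4 (edgeR adjusted p = 0.0002). In ΔWAPL/ΔSCC4 against ΔSCC4 these markers went opposite ways, with -1.27 for PDGFRA and 1.36 for COL1A1 (edgeR adjusted p = 2.46e-05 and 1.55e-06). Their part in the changes of the adhesion genes was not tested.

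The nearest protein-coding genes give the setting of NCAM2 and CADM1 on their chromosomes. NCAM2 lies alone in a wide stretch, with TMPRSS15, CHODL and C21orf91 at lower coordinates, 2.51, 2.73 and 3.18 Mb away, and MRPL39, JAM2 and ATP5PF at higher coordinates, 4.04, 4.10 and 4.17 Mb away. JAM2, itself a junctional adhesion molecule of the immunoglobulin superfamily, was at 7.62 to 9.37 CPM in control A and 15.61 to 18.04 in clone 3.3, and at 11.41 to 11.93 in control B and 20.25 to 22.31 in clone 1.14. The log2 fold changes were 0.93 and 0.88, and in ΔSCC4 and ΔWAPL/ΔSCC4 they were 0.02 and 0.00 (edgeR adjusted p = 0.959 and 0.995).

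CHODL, a membrane protein of the C-type lectin family, differed from control in opposite directions in the clones. It was at 0.37 to 0.48 CPM in control A and 3.75 to 4.23 in clone 3.3, but at 0.82 to 1.58 in control B and 0.12 to 0.21 in clone 1.14, with log2 fold changes of 3.22 and -2.87. In ΔWAPL/ΔSCC4 it was at 0.74 to 1.11 CPM, above control A, on 50 reads against 20. C21orf91 had log2 fold changes of 0.29 in clone 3.3 and 0.75 in clone 1.14, and of 0.42 in ΔSCC4 and 0.03 in ΔWAPL/ΔSCC4 (edgeR adjusted p = 0.14 and 0.95). MRPL39 and ATP5PF, which encode mitochondrial proteins, had log2 fold changes of 0.11 and -0.01 in clone 3.3 and 0.16 and -0.06 in clone 1.14. TMPRSS15 had 0 to 6 reads per group.

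Around CADM1, NXPE1 and NXPE4 had no read, NXPE2 at most 3 reads and APOA5 at most 3 reads per group. BUD13 and ZPR1, expressed 1.24 and 1.27 Mb from CADM1, had log2 fold changes of -0.06 and -0.07 in clone 3.3 and -0.23 and -0.27 in clone 1.14, where CADM1 had -6.30. In ΔSCC4 they were -0.08 and -0.05 (edgeR adjusted p = 0.766 and 0.878), where CADM1 had -1.62.

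**Figure D4:**
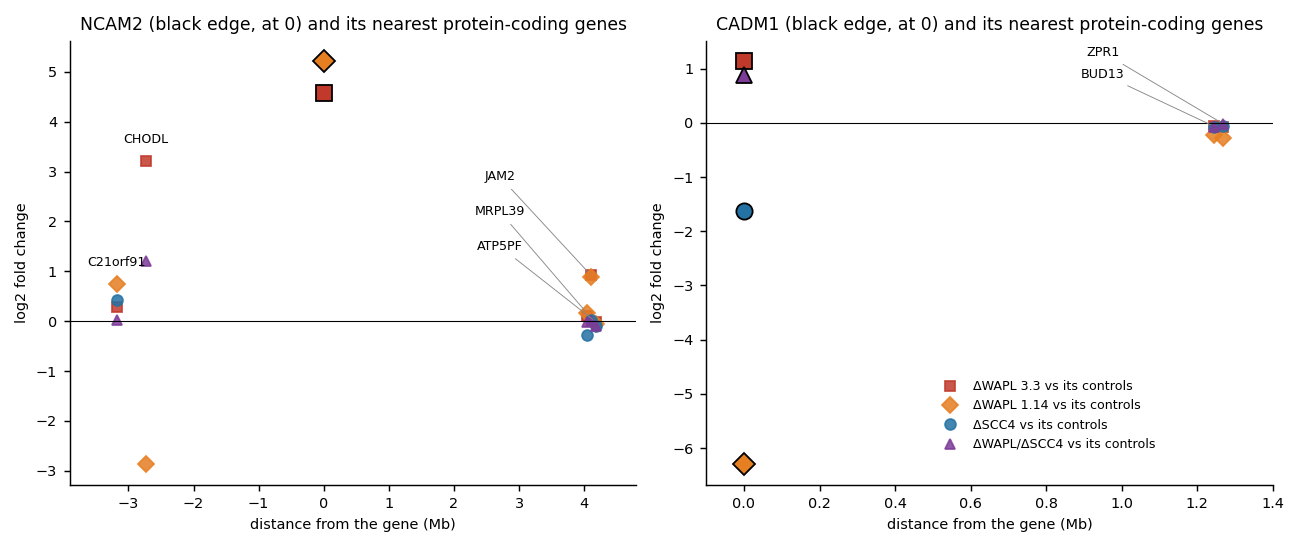
Log2 fold changes (vertical axis) of NCAM2 (left) and CADM1 (right), drawn with black edges at 0, and of their nearest protein-coding genes that passed the count filter, against distance from the gene in Mb. NCAM2 did not pass the filter in ΔSCC4 and ΔWAPL/ΔSCC4 and has no symbol there. CHODL is at 3.22 and -2.87 in the ΔWAPL clones and JAM2 at 0.93 and 0.88, while BUD13 and ZPR1 beside CADM1 lie within 0.27 of 0.

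The 5 genes whose log2 CPM was most like that of NCAM2, by Pearson's r across the 18 samples, were LRRC7 (0.972), SEMA3A (0.971), CLSTN2 (0.967), SPOCK3 (0.964) and PDE3A (0.959). This r describes samples that share a clone or a set, A or B, and was not tested. LRRC7 encodes a scaffold of the postsynaptic side, SEMA3A a secreted guidance cue that repels axons, CLSTN2 a synaptic protein of the cadherin superfamily, SPOCK3 a proteoglycan of the extracellular matrix and PDE3A a phosphodiesterase. SEMA3A had mean levels of 8.95 CPM in control A, 38.25 in clone 3.3, 3.59 in ΔSCC4, 5.32 in ΔWAPL/ΔSCC4, 7.45 in control B and 40.66 in clone 1.14. LRRC7 had 1.96, 19.45, 1.58, 2.21, 1.90 and 26.16 CPM in the same order. These genes, like NCAM2, were high in both ΔWAPL clones and low in the other 4 groups.

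CADM1 was most like SIM2 (0.970), PTPRN2 (0.942), TMEM35A (0.934), MGMT (0.912) and ADORA1 (0.909). SIM2 encodes a transcription factor, PTPRN2 a protein of secretory granules, TMEM35A a chaperone of acetylcholine receptors, MGMT a DNA repair enzyme and ADORA1 an adenosine receptor. TMEM35A had mean levels of 6.53 CPM in control A, 19.45 in clone 3.3, 2.55 in ΔSCC4, 21.3 in ΔWAPL/ΔSCC4, 7.64 in control B and 0.86 in clone 1.14. MGMT had 6.75, 12.39, 1.13, 6.31, 7.69 and 0.62 CPM. All 5 were lowest in clone 1.14.

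**Figure D5:**
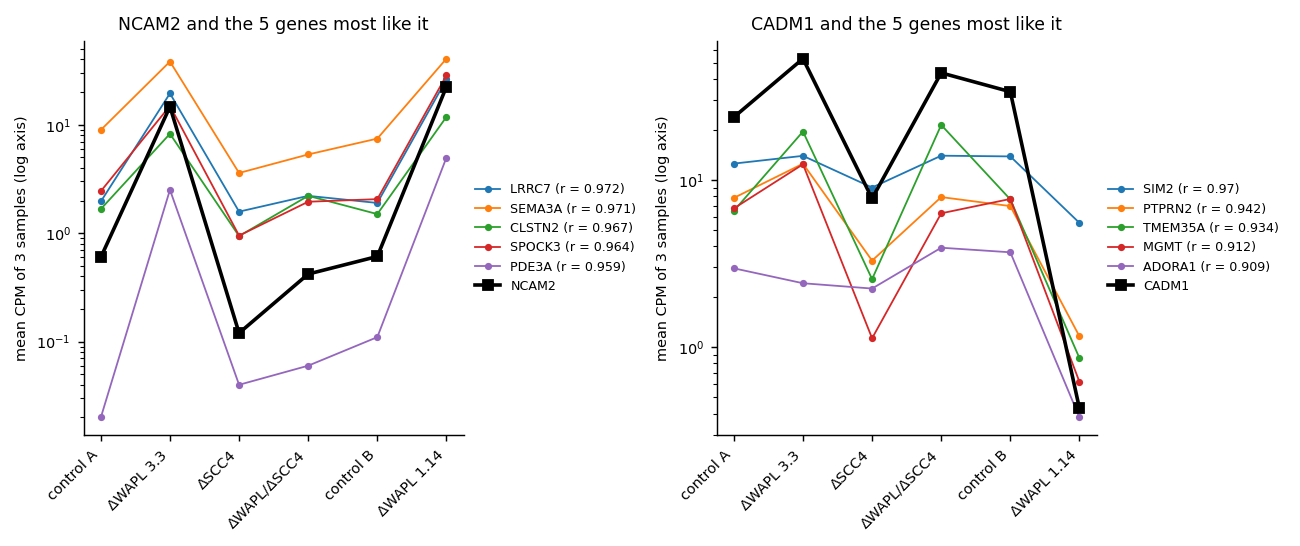
Mean CPM of 3 samples (vertical axis, log scale) in the 6 groups for NCAM2 (left) and CADM1 (right), in black, with the 5 genes whose log2 CPM had the highest Pearson's r with each. The left set is high in both ΔWAPL clones, and the right set is lowest in ΔWAPL 1.14.

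CADM2 was most like ANGPT1 (0.964), ZNF181 (0.947), FAM200B (0.943), SH3BGRL (0.938) and MIER3 (0.934). ANGPT1, a secreted ligand of the vascular receptor TEK, had a mean of 8.55 CPM in control A and 29.92 in ΔSCC4. CADM4 was most like PLD6 (0.962), TRIM27 (0.962), CNPPD1 (0.961), DDB1 (0.959) and MTA2 (0.958), whose means were all highest in ΔSCC4 and lowest in clone 1.14. Between the members themselves, Pearson's r over the same samples was -0.419 for NCAM2 and CADM1, -0.370 for CADM1 and CADM2 and -0.005 for NCAM2 and CADM2.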

How the data were processed

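Strand-specific libraries of polyadenylated RNA were made from HAP1 cells. The authors aligned the reads and deposited raw counts per gene, made with HTSeq. The submitters' processing notes name TopHat2 2.0.9 and hg19, and the study's methods name a later TopHat version. Lines of reads outside genes, 20.34% to 22.62% of the reads in a sample, were left out. Of 20329 gene identifiers, 96.6% were in the annotation (GENCODE 44 on GRCh37).

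Counts were compared with edgeR 4.0.16 (R 4.3.3), with TMM factors, filterByExpr, the quasi-likelihood test and Benjamini-Hochberg adjustment over all genes at 0.05, in separate fits of 3 against 3 samples. Log2 CPM values had a prior count of 2, and log2 fold changes came from the edgeR fits. SE was obtained from the log2 fold change and the F statistic, as the size of the change divided by the root of F. The labels give sets A and B for the controls only; other samples were matched to a set by the sequencing order in their headers. Same-numbered ΔSCC4 and control A samples had correlated deviations (0.675, 0.115 and 0.615), and values with a replicate block are given there beside the main ones. Replicate 2 of ΔWAPL/ΔSCC4 and replicate 3 of control A, which differ in number, correlated by 0.618. These correlations thus do not settle whether the numbers mark pairs. Members and lists were chosen with earlier results of these data known, and no p is printed for NCAM2 and CADM1 against control A, whose samples entered their selection, or for genes that passed the filter only through the group where they are high. Named genes were the members, WAPL and MAU2, up to 4 genes per list and comparison with the largest change past the threshold, the 3 nearest coding genes on each side and the 5 genes most alike. Alternatives were DESeq2 1.42.0, its size factors, total counts, leaving out the filter, a minimum of 10 counts in all samples, all 18 samples in one fit, the replicate block, leaving out each sample and another gene length. In simulated data for ΔSCC4 against control A over 12490 genes, 93% of genes changed 2-fold and 100% of genes changed 4-fold were found, with 5.39% false. The simulated samples were independent, with a single fixed spread for all genes, and only well-counted genes were changed. These rates therefore need not hold for the real samples, or for members with few reads. Replicates differed by more than counting noise in every pair. Intervals and floors of 3 reads cover counting error only.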

Additional observations from a re-analysis of the deposited data

Results flagged for a closer look

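CADM3 had reads in a single sample of the 6 wild-type controls, control A replicate 2, and none in the other 5, so the gap of that sample took the whole range of the group (ratio 1.0, on 2 reads). Among 6 such checks, about 1 in 20 is passed by chance.

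CADM1 differed from control in opposite directions in the ΔWAPL clones, with a mean difference in log2 CPM of 1.16 in clone 3.3 and -5.96 in clone 1.14 against their own controls, in all 3 samples of each. The difference between the clones was not tested, because CADM1 was selected on these samples.

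CADM2 was higher in ΔSCC4 than in control A by 1.65 on the log2 CPM scale, and lower in ΔWAPL/ΔSCC4 than in ΔWAPL 3.3, with a difference of -0.79, in all 3 samples of each. The difference between loss of SCC4 with and without WAPL was not tested.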

How the results depend on the processing

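No value past the threshold changed its direction under any alternative run. CADM4 in ΔWAPL/ΔSCC4 against ΔWAPL 3.3, near 0, ranged from -0.13 to 0.03 when a single sample was left out. For ΔSCC4 against control A, 1186 genes passed the threshold, 5754 with the replicate block and 2556 in the fit over all 18 samples, and 662 to 2317 when a single sample was left out. For ΔWAPL/ΔSCC4 against control A the count of 1001 ranged from 586 to 1552, and for ΔWAPL/ΔSCC4 against ΔSCC4 that of 3447 from 2080 to 5020, when a single sample was left out. In the fit over all 18 samples 3996 genes passed in the last comparison, and of the members, NCAM1 included, 5 in place of 3 did. The 5 include NCAM2 and CADM1, and that fit holds the samples on which both were selected. They also include NCAM1, whose test is void because it had enough reads only through ΔSCC4. Nothing is read from this count. The causes of these shifts were not tested. Same-numbered samples of ΔWAPL/ΔSCC4 correlated by 0.241, 0.187 and -0.545 with those of control A, and by 0.271, 0.037 and -0.444 with those of ΔSCC4. Whether the numbers mark pairs is not settled by these values. The replicate block gave 944 and 3341 genes in these comparisons and changed no call of a member. With few reads in NCAM1, NCAM2 and CADM3, depth limits what can be said of them.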
